A study of Mus musculus with 14 samples.

Results

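The clustered protocadherin genes were taken as the protein-coding genes on mouse chromosome 18 whose GENCODE name begins with Pcdha, Pcdhb or Pcdhg. There were 57 of them, 14 in the alpha, 22 in the beta and 21 in the gamma part, out of 21755 protein-coding genes on chromosomes 1 to 19 and X. The sites of acetylated histone H3 lysine 27 (H3K27ac) that belong to the locus were those at a transcription start site (TSS) of these genes and all others from 100 kb before to 100 kb after the cluster. They numbered 47 of 122228 in the whole list. A site belonged to a gene where its middle was within 1 kb of any annotated TSS of that gene.

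The cells were iMEF, immortalised mouse embryo fibroblasts in which Cre-ER recombinase can be activated to excise a floxed part of Ash2l. In all of them, control cells included, an exon of the endogenous Ash2l gene had been deleted, and human ASH2L was supplied from a lentivirus as a fusion with FKBP12F36V and HA tags. The compound dTAG-13 binds FKBP12F36V and recruits a ubiquitin ligase, so the fusion protein is degraded. Per the study, the H3K27ac experiment used NG3, a single clone, and whether a pattern at this locus is shared by other clones was not tested. Chromatin immunoprecipitation followed by sequencing (ChIP-seq) gave 14 libraries in 8 groups. There were 2 H3K27ac libraries each for cells without dTAG and for cells after 30 min, 2 h, 4 h, 8 h and 16 h of dTAG, and 1 input library each for cells without dTAG and after 16 h.

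The list analysed here gave the positions of sites, joined over all time points, with no read count or score for any site. The number of reads behind each site was therefore unknown, and from this list neither the time points nor the replicates could be compared at any of the 57 genes. Changes of sites between time points were not analysed here. A site shows that H3K27ac was called in at least 1 of the pooled samples, and a width cannot be read as a signal. All shares below are counts over genes or sites, and their 95% Wilson intervals cover counting error only, because neighbouring genes share one locus and are not independent.

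Clustered protocadherins are cadherin-like proteins of the cell surface that are best known in neurons, where each cell uses its own combination of isoforms to tell its own processes from those of its neighbours. In the alpha and gamma parts, each variable first exon has its own promoter and is spliced to constant exons that encode a shared cytoplasmic domain. Beta genes consist of a variable exon without constant exons. Most isoforms are chosen by chance in each neuron, with the help of the insulator protein CTCF, the cohesin complex and distal enhancers, whereas the C-type isoforms at the ends of the alpha and gamma parts are used more evenly. H3K27ac marks active promoters and enhancers.

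Few of the clustered genes carried a site. A site was found at 7 of 57 genes (12.3%, interval 6.08 to 23.2%), while 54.7% of all 21755 protein-coding genes had one. These 7 genes were Pcdhac2 in alpha, Pcdhb19 and Pcdhb21 in beta, and Pcdhgb1, Pcdhga6, Pcdhgc3 and Pcdhgc5 in gamma. All of them had exactly 1 site by this rule, and the other 50 genes had none. The share was 7.14% in alpha (1 of 14, interval 1.27 to 31.5%), 9.09% in beta (2 of 22, interval 2.53 to 27.8%) and 19.0% in gamma (4 of 21, interval 7.67 to 40%). The 3 intervals overlapped, so a difference between the parts could not be seen in this number of genes. The upper ends of all 3 intervals were below the share of all protein-coding genes, which was not matched for the base composition described below.

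**Figure D1:**
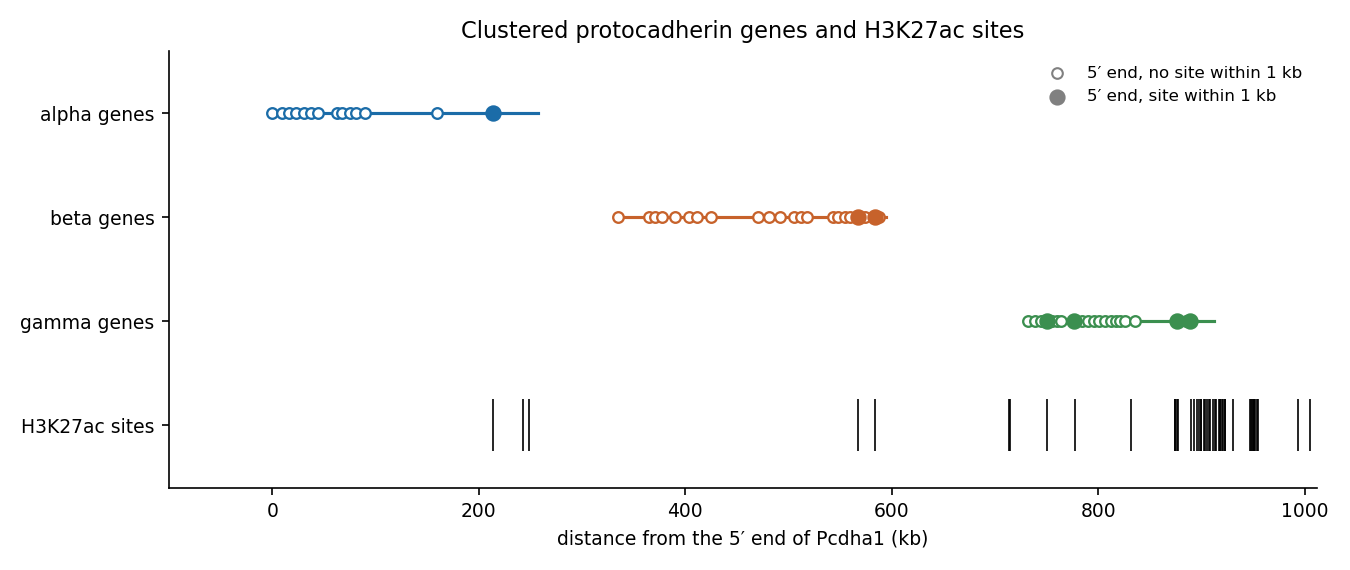
Map of the locus, with the 5′ ends of the 57 clustered genes (circles, filled where a site is within 1 kb of a TSS), the extent of each part (horizontal lines) and the middles of the 47 H3K27ac sites (vertical ticks), plotted against the distance from the 5′ end of Pcdha1 in kb. The ticks are sparse over alpha and beta and dense over the last part of gamma and the downstream flank.

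The genes with a site were unevenly spread over the types of isoform. C-type genes, which are Pcdhac1 and Pcdhac2 in alpha and Pcdhgc3, Pcdhgc4 and Pcdhgc5 in gamma, had a site in 3 of 5 cases (60%, interval 23.1 to 88.2%). Of the other 52 genes, 4 had a site (7.69%, interval 3.03 to 18.2%). These intervals did not overlap, but they cover counting error only and neighbouring genes are not independent. The C-type interval included the 54.7% of all protein-coding genes, while the interval of the other 52 was below it. Among the 12 alternate alpha genes there was none, which allows a share of up to 25% if a count of 0 is read as fewer than 3. In gamma, 1 of 12 A-type and 1 of 6 B-type genes had a site. The C-type genes stood at the 3′ ends of their parts, so the type of isoform and the position in the part cannot be told apart here.

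**Figure D2:**
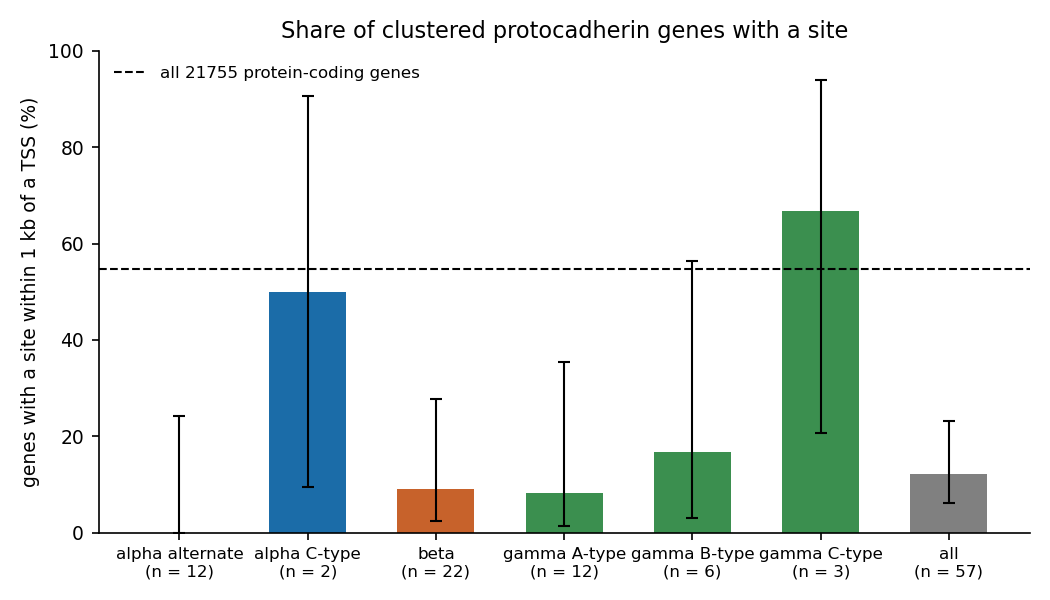
Share of genes with a site within 1 kb of a TSS, in percent, for the types of clustered gene and for all 57, with 95% Wilson intervals as error bars and the share of all 21755 protein-coding genes as a dashed line. Only the bar of the gamma C-type genes is above the dashed line, and its interval, from 2 of 3 genes, is wide.

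The site of Pcdhac2, an alpha isoform known for its role in the spacing of serotonergic axons, had a width of 634 bp (chr18:37143577-37144210, GRCm38). It began 74 bp downstream of the 5′ end and was entirely in the first exon, with 38.2% of its bases in coding sequence. It was the only site at a clustered alpha gene, and the site overlapped a CpG island (CGI) of 1314 bp. The neighbouring Pcdhac1 had a CGI as well, of 866 bp, but its 5′ end was 53.6 kb away from the nearest site. Thus the pair of C-type genes in alpha differed in this respect.

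In beta, both sites were near the 3′ end of the part. Pcdhb19 had a site of 381 bp (chr18:37497014-37497394), which began 23 bp downstream of the 5′ end and had 63.3% of its bases in coding sequence. Pcdhb21 had a site of 348 bp (chr18:37513631-37513978), which began 10 bp downstream and had 45.7% of its bases in coding sequence. Between them was Pcdhb20, whose 5′ end was 6.87 kb from the nearest site. The last beta gene, Pcdhb22, was 3.89 kb from the site of Pcdhb21, and the first, Pcdhb1, was 86.2 kb from any site. These 2 sites were the only ones in the whole beta part.

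In gamma, the sites at the A- and B-type genes resembled those in beta. Pcdhgb1 had a site of 759 bp (chr18:37680255-37681013) from 22 bp downstream of its 5′ end, with 73.3% of the bases in coding sequence. Pcdhga6 had a site of 410 bp (chr18:37707075-37707484) from 36 bp downstream, with 62.4% in coding sequence. Both were entirely in the first exon. The first gamma gene, Pcdhga1, was 17.2 kb from the nearest site, which belonged to Taf7.

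The C-type genes of gamma differed among themselves. Pcdhgc3, a broadly expressed isoform, was flanked by sites on both sides of its 5′ end. The upstream site of 394 bp (chr18:37805885-37806278) met the 1 kb rule, with its middle 283 bp from a TSS. The downstream site of 2582 bp (chr18:37806367-37808948) began 3 bp after the 5′ end and had 93.0% of its bases in coding sequence, but its middle was too far away to be counted. It was wider than 97.6% of all sites in the list. Pcdhgc5 had a site of 1657 bp (chr18:37818818-37820474) that began at position -695 relative to its 5′ end and was wider than 93.5% of all sites. Pcdhgc4, an isoform needed for the survival of many interneurons, was located between these genes and had none. Its 5′ end was 3.74 kb from the nearest site, that of Pcdhgc5.

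Pcdhgc5 was the only clustered gene whose 5′ end was inside a site. At the other 6 genes with a site, the nearest site began 3 to 74 bp downstream of the 5′ end. Of all 11908 protein-coding genes with a site, the 5′ end was inside a site in 65.7% (7828 genes, interval 64.9 to 66.6%). The 7 sites counted at clustered genes had a median width of 410 bp. The 19329 sites within 1 kb of a TSS of any protein-coding gene had a median of 740 bp, and 5 of the 7 were narrower than that.

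The distance of a 5′ end from the nearest site had its highest median in alpha and its lowest in gamma. For the 12 alternate alpha genes it was between 123 and 170 kb, with a median of 145 kb. For beta genes the median was 68.5 kb and the range was from 10 bp to 155 kb. For gamma genes the median was 8.82 kb and no 5′ end was more than 24.8 kb from a site. Among the 50 genes without a site the nearest were Pcdhga12 at 3.53 kb, Pcdhgc4 at 3.74 kb and Pcdhb22 at 3.89 kb. Hence no gene was close to the limit of 1 kb, and windows of 500 bp, 2 kb or 3 kb gave the same 7 genes.

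**Figure D3:**
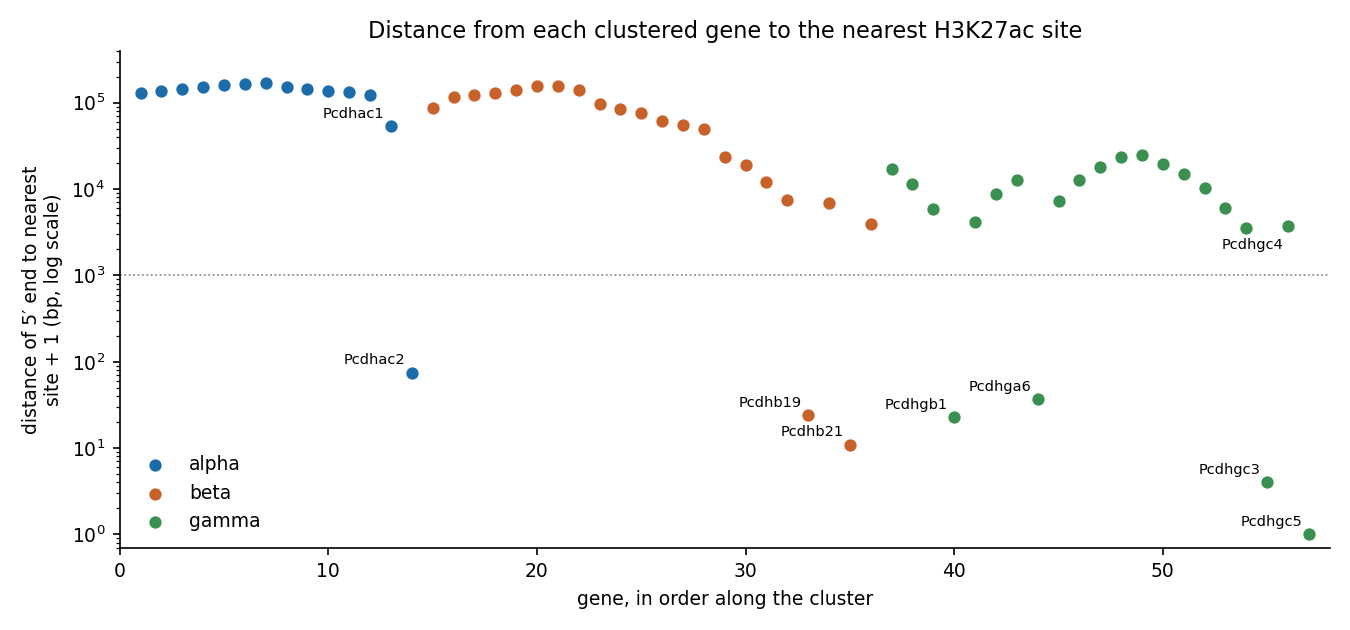
Distance from the 5′ end of each of the 57 clustered genes to the nearest H3K27ac site, in bp with 1 added, on a log axis, with the genes in their order along the cluster. The dotted line marks 1 kb. The genes fall into 7 points below the line, all within 74 bp of a site, and 50 points above it, none closer than 3.53 kb.

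Sites of the locus were concentrated in gamma and downstream of it. The alpha part (chr18:36930184-37187661) had 3 sites over 257 kb, which is 1.17 sites per 100 kb. The beta part (chr18:37264938-37524479) had 2 over 260 kb, or 0.771 per 100 kb. The gamma part (chr18:37661793-37841873) had 19 over 180 kb, or 10.6 per 100 kb. For comparison, chromosomes 1 to 19 and X had 4.77 sites per 100 kb of sequenced bases and chromosome 18 had 4.75. Sites covered 0.608% of the bases in alpha, 0.281% in beta and 9.48% in gamma, and 3.07% on chromosomes 1 to 19 and X. The upstream flank and the 77.3 kb between alpha and beta had 0 sites, the 137 kb between beta and gamma had 2, and the downstream flank had 21.

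Long stretches of the cluster had no site at all. The longest was 342 kb, from a site before the cluster to that of Pcdhac2, and included the 5′ ends of all 14 alpha genes. A stretch of 318 kb followed within the cluster, from the intron of alpha to Pcdhb19, with the 5′ ends of 19 beta genes, Pcdhb1 to Pcdhb19. Of 122151 gaps between neighbouring sites on chromosomes 1 to 19 and X, 999 were longer than the first and 1085 were longer than the second. The next gaps were 130 kb around Pcdhb22 and 54.3 kb with the 5′ ends of 9 gamma genes from Pcdhga7 to Pcdhga11. The shares of repeats were 40.1% in alpha, 38.0% in beta and 20.5% in gamma. When only bases outside repeats were counted, the densities were 1.95, 1.24 and 13.3 sites per 100 kb.

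Within gamma, the density changed around Pcdhgc3. The 145 kb before its 5′ end had 6 sites, or 4.15 per 100 kb, and these covered 1.58% of the bases. The 35.5 kb from its 5′ end to the end of the part had 13 sites, or 36.6 per 100 kb, and these covered 41.7% of the bases. Around this 5′ end, 4 sites less than 1 kb apart formed a region of 4722 bp that began at position -2137. Its sites were thus counted on both sides of the split, and those upstream were among the 6. From the 5′ end of Pcdhgc3 to the end of the downstream flank there were 34 of the 47 sites in 136 kb. The 976 kb before it had 13. All 7 sites wider than 1 kb were in the former stretch, and the widest in the latter was the 759 bp site of Pcdhgb1.

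**Figure D4:**
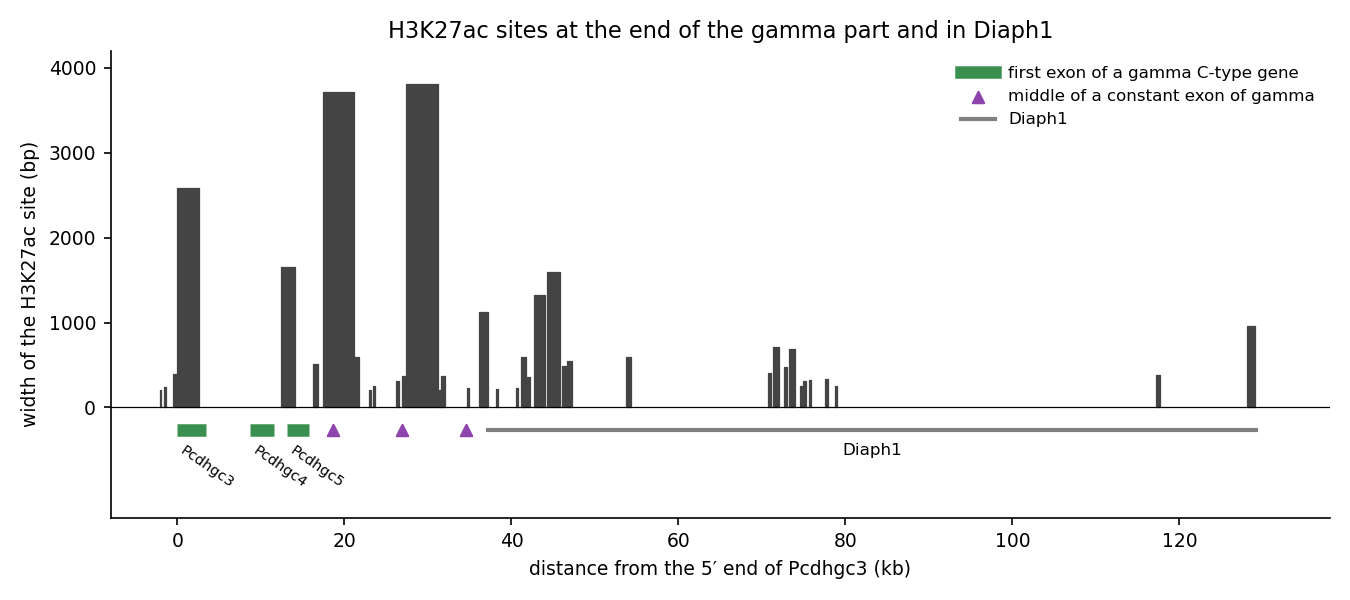
Sites from 8 kb before the 5′ end of Pcdhgc3 to the 5′ end of Diaph1, with position in kb on the horizontal axis and the width of each site in bp as the height of its block. Below the axis are the first exons of Pcdhgc3, Pcdhgc4 and Pcdhgc5, the constant exons of gamma and the gene Diaph1. The 2 tallest blocks, of 3713 and 3806 bp, are among the constant exons, and no block is at Pcdhgc4.

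The constant exons of gamma were surrounded by sites. Of the 16.9 kb from constant exon 1 to the end of constant exon 3, 52.3% was covered by sites, and 10 sites had their middle there. The widest site of the locus, 3806 bp (chr18:37833729-37837534), was located between constant exons 2 and 3, where sites covered 71.5% of the intron. It was wider than 99.2% of all sites. A site of 3713 bp (chr18:37823788-37827500) covered constant exon 1, and a site of 376 bp reached into constant exon 2. A narrow site of 224 bp was in constant exon 3. By contrast, none of the constant exons of alpha was overlapped by a site, and 2.96% of the 31.5 kb from the first to the third was covered. The 2 sites there, of 462 and 469 bp, were between constant exons 2 and 3, at TSSs of the non-coding genes Gm38097 and Gm10544. Whether any of these sites corresponds to a known enhancer of the locus was not tested.

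Of the 47 sites, 7 were at a TSS of a clustered gene and 13 at a TSS of another gene. A further 21 were in introns, 5 reached into exons and 1 was between genes. In gamma, 9 of 19 sites were away from any TSS, 7 of them in introns. In alpha and beta, no site was away from a TSS. When sites less than 1 kb apart were joined, the 47 sites formed 23 regions, 15 of which were single sites. At the end of gamma, 5 sites formed a region of 5827 bp, and 4 sites around Pcdhgc3 formed a region of 4722 bp.

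Of 6 other protein-coding genes with a 5′ end in the locus, 2 had a site at a TSS, Taf7 and Diaph1. Taf7, which encodes a subunit of the general transcription factor TFIID and is located between beta and gamma, had 2 sites, of 482 and 256 bp, the nearer of which was 17 bp away from its 5′ end. Slc25a2, a mitochondrial carrier next to it, had none and was 4961 bp from the nearest. Diaph1, which encodes a formin that assembles actin filaments and is transcribed towards the gamma part, had 3 sites at its TSSs, with one of 962 bp whose edge was 6 bp away from its 5′ end. The gene body of Diaph1 held 20 of the 21 sites of the downstream flank. Gm42416, Gm37013 and Gm37388, annotated as protein-coding genes that start in alpha and end in gamma, had no site at a TSS. Their 5′ ends were at least 151039 bp from any site. Sites of alpha, beta and gamma and those of Taf7 were nevertheless within their bodies.

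Base composition around the 5′ ends differed between the parts. A CGI within 1 kb of a TSS was found for 11 of 14 alpha, 1 of 22 beta and 10 of 21 gamma genes, 22 of 57 in all (38.6%), compared to 59.5% of all protein-coding genes. Most were short, with a median of 304 bp, and with a minimum length of 500 bp only 6 genes had one. How CGIs and sites went together depended on the length of the CGI. With a CGI of at least 200 bp, 2 of 22 genes had a site (9.09%, interval 2.53 to 27.8%), namely Pcdhac2 and Pcdhgc3. Without a CGI it was 5 of 35 (14.3%, interval 6.26 to 29.4%). Among all protein-coding genes, 80.1% of those with a CGI and 17.5% of those without had a site. The share of the clustered genes with a CGI was thus below that of all CGI genes, and its interval did not reach it. The share of those without a CGI was close to that of all genes without one. In beta, where 1 of 22 genes had a CGI, the interval of the share with a site (2.53 to 27.8%) included this 17.5%. With CGIs of at least 500 bp, the same 2 genes were 2 of 6 (33.3%, interval 9.68 to 70.0%), compared to 5 of 51 others (9.80%, interval 4.26 to 20.98%), so the direction turned, and the intervals overlapped under both limits. At this length, 82.4% of all protein-coding genes with a CGI and 34.7% of those without had a site.

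The GC content over 1 kb on either side of the 5′ end had a median of 41.9% in alpha, 42.1% in beta and 45.5% in gamma, compared to 51.3% for all protein-coding genes. The 5 C-type genes stood out with 50.2 to 54.8%, while the other 52 genes had 38.8 to 47.2%. The observed to expected CpG ratio had medians of 0.641 in alpha, 0.334 in beta and 0.513 in gamma. The 7 genes with a site ranged from 0.201 for Pcdhb21 to 0.820 for Pcdhgc3, so they covered most of the range of the 50 without, 0.138 to 0.767.

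**Figure D5:**
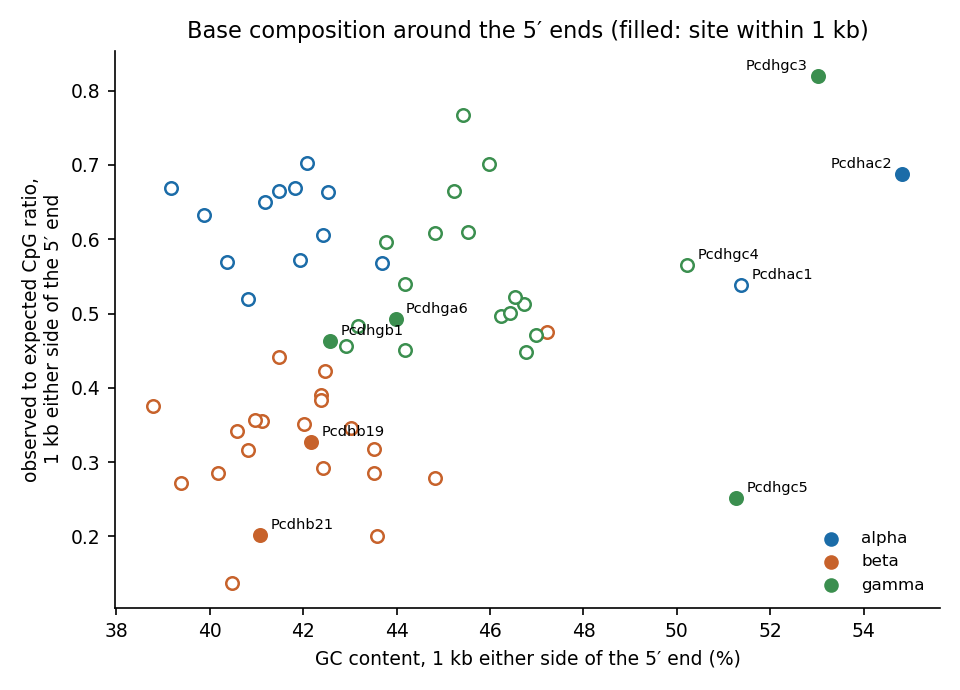
GC content in percent and observed to expected CpG ratio over 1 kb on either side of the 5′ end of each of the 57 clustered genes, coloured by part and filled where the gene has a site. The C-type genes are above 50% GC, and filled points occur at low as well as high CpG ratios.

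Promoters of clustered protocadherins are known for a conserved sequence element with the core CGCT. In the 300 bases from 250 before to 50 after the 5′ end, CGCT on either strand was found for 55 of 57 genes, the exceptions being Pcdhb22 and Pcdhga12, and in 67.5% of all protein-coding promoters of the same length. The longer GGCGCT, which contains CGCT, was found for 18 of 22 beta genes but for 2 of 14 alpha and 5 of 21 gamma genes, compared to 18.5% of all protein-coding promoters. All 7 genes with a site had CGCT, and 4 of them had GGCGCT (57.1%), as had 21 of the 50 without a site (42.0%). A match describes these letters only and is not evidence of the whole element or of a bound factor.

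Because the clustered genes are similar in sequence, reads may not align to a single place. Within 1 kb of the 5′ ends, 97.7% of all 75-base windows occurred once in the genome, with 94.3% in alpha, 98.5% in beta and 99.2% in gamma. The lowest value was 88.9%, at Pcdha6. Over whole parts the share was 87.3% in alpha, 92.1% in beta and 98.0% in gamma. It was 82.1% in alpha before Pcdhac1 and 79.3% between beta and gamma. The 7 genes with a site were unique throughout, as were 23 of the 50 without a site. These shares count exact copies on the assembled chromosomes only. How reads from near copies were aligned or filtered was not examined, and their part in the result was not tested.

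Protocadherin genes outside the cluster were considered for comparison. Of 12 non-clustered protocadherins, which encode related adhesion proteins with their own promoters, 5 had a site (41.7%, interval 19.3 to 68.0%), and this interval overlapped that of the clustered genes and also included the 54.7% of all protein-coding genes. A CGI was found for 9 of the 12. The 5 with a site were Pcdh7, Pcdh9, Pcdh11x, Pcdh18 and Pcdh19. Their widest sites measured between 1544 bp at Pcdh9 and 7110 bp at Pcdh7. Pcdh1 and Pcdh12, which are on the same chromosome downstream of the cluster, had none. Pcdh10 had none by the rule, which counts the middle of a site, although the edge of a site was 999 bp from its 5′ end.

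All 11 genes for CTCF and cohesin, which shape the choice of promoters in the cluster, had a site, among them Ctcf, Rad21 and Nipbl. The same was true for all 4 genes of silencing factors considered, Smchd1, Dnmt3b, Setdb1 and Rest. All of these genes had a CGI, and 80.1% of all CGI genes had a site, so nothing particular to them is read from these counts. Smchd1 and Dnmt3b are known to keep clustered protocadherins silent. A site was found at 7 of 12 fibroblast markers (58.3%, interval 31.95 to 80.7%, beside 54.7% of all protein-coding genes). It was 9 when a site over the 5′ end itself was counted as well, and no share of all genes by this wider rule is given here. Only 4 of these markers had a CGI, compared to 59.5% of all protein-coding genes, so the shares are not matched for CGIs. Those with a CGI, Vim, Thy1, Pdgfra and Twist1, all had a site. Of those without, Col1a2, Col3a1 and Pdgfrb had one by the rule and Col1a1 and Prrx1 only over the 5′ end. Fap, Dcn and Lum had 0 by both rules. Among all protein-coding genes without a CGI, 17.5% had a site by the rule. Neuron markers had a site in 3 of 10 genes (30%, interval 10.8 to 60.3%), Tubb3, Map2 and Elavl4. Rbfox3, Syp, Snap25, Stmn2 and Dcx were among the 7 without. A CGI was found for 7 of the 10 neuron markers. Of the markers of epithelium, endothelium and blood, a site was found at 1 of 4, 1 of 3 and 0 of 3 genes.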

How the data were processed

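H3K27ac ChIP-seq libraries of iMEF cells without dTAG and after 5 durations of dTAG were sequenced single-end with a 75-cycle kit. Per the study's methods and processing notes, trimming was done by the authors with Trim Galore, alignment to mm10 (GRCm38.p6) with BWA, filtering with SAMtools, merging of replicates with Picard and calling of narrow peaks with MACS2. Versions and the peak threshold were not given in the sources used here, nor how the peaks were joined. The deposited values in the list used were site positions in base pairs, with the start counted from 0, printed here from 1. The list held no counts, so no group was compared and no test was run.

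Genes and TSSs came from GENCODE release M21 on the same build, and the authors used a later release. Genes were counted by identifier, since 2 alpha genes share the name Pcdha11. Pcdhgb8 is annotated there as a polymorphic pseudogene and was not a member. CGIs were called on repeat-masked GRCm38.p6 as runs scored 17 per CpG and -1 per other base, with at least 200 bp, 50% GC and an observed to expected ratio of 0.6. This gave 17056 CGIs. Windows of 75 bases were called unique if they occurred once on the assembled chromosomes, on either strand. Of the windows of the locus, 5.94% also occurred on patches or unplaced sequences, which were not counted. The counting of sites near positions, the calling of CGIs and the uniqueness of windows were checked on simulated data. The other steps were not checked in this way. Intervals were 95% Wilson intervals. Calculations used Python 3.11.15, numpy 2.4.6, pandas 2.3.3 and numba 0.67.0, with matplotlib 3.10.9 for plots.

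Named genes were those with a site, the C-type genes, the first and last gene of each part and the other protein-coding genes of the locus. Other names were chosen after their values were seen. The members, lists and measures were chosen with earlier results of these data known. The lists came from general knowledge. No sequence of the locus was printed.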

Additional observations from a re-analysis of the deposited data

How the results depend on the processing

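Alternatives could be run for 15 results, 60 planned and 4 chosen after seeing the data, and 48 of the 64 left the value within its limits. For counts of sites, the limit was a change of 1.5-fold. Within it, the 47 sites of the locus became 68 with a flank of 200 kb and 36 without the narrowest 25% of sites. Without these, the 19 sites of gamma became 13. The clustered genes with a site were entered for all, alpha, beta and gamma, so these alternatives are not separate. The same 7 clustered genes had a site with windows of 500 bp, 2 kb and 3 kb, any overlap with the window, the 5′ end alone, TSSs of protein-coding transcripts alone and without the narrowest 25% of sites. With Pcdhgb8 added, the number was 8 of 58, and 5 of 22 in gamma. The share of all protein-coding genes, 54.7%, was 50.1% with 500 bp, 56.8% with 2 kb, 58.1% with 3 kb, 55.8% with any overlap, 49.6% with the 5′ end alone, 53.3% with TSSs of protein-coding transcripts and 53.6% without the narrowest sites.

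With the parts split halfway between neighbouring genes of different parts, sites covered 0.529% of alpha, 0.199% of beta and 7.16% of gamma, and without the narrowest sites 8.76% of gamma. Merging sites less than 1 kb apart left 9 in gamma and 23 in the locus. CGIs of at least 500 bp left 6 of 57 genes with a CGI, and the difference in the share with a site between clustered genes with and without a CGI turned from -5.19 to 23.5 percentage points. With reads of 50 bases, 95.8% of windows near the 5′ ends were unique. The order of the densities of alpha, beta and gamma was the same under these alternatives. No paired analysis was possible because no value per sample was given. The reads behind each site were unknown, so no limit can be set for an absent site.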

Other observations

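Non-coding and pseudogene annotations of the locus were considered as well. Of 26 such genes with a 5′ end from 100 kb before to 100 kb after the cluster, 6 had a site by the 1 kb rule. The share over all annotations of these kinds is not given here, so this count cannot be called high or low. The polymorphic pseudogene Pcdhgb8, a B-type gamma gene in the annotation used, had a site of 285 bp (chr18:37761768-37762052). It covered the annotated 5′ end and was the nearest site to 6 members, Pcdhga9 to Pcdhga12 among them. BC037039, antisense to the first exon of Pcdhgc3, had the 2582 bp site at its TSS. Gm38182, in the direction of gamma, had 2 sites at its TSSs, of 506 and 3713 bp. Gm29994, in the opposite direction between constant exons 1 and 2, had 2 of 200 and 249 bp. In alpha, Gm10544 and Gm38097, both antisense to the alpha genes, had 1 each, while the antisense genes Gm37751, Gm38225, Gm37753 and Gm10545 near the alternate alpha exons had none and were at least 122898 bp from any site. Thus 8 sites not counted at the 57 genes were at TSSs of non-coding genes or Pcdhgb8, among them the 2582 bp site, which begins 3 bp after the 5′ end of Pcdhgc3.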
